A study of Sus scrofa with 2 samples.

Results

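Steroid hormone synthesis was followed through 9 genes in the somatic cells of 2 pig antral follicles. The genes were STAR, CYP11A1, CYP19A1, FDX1, FDXR, CYB5A, HSD17B1, HSD17B4 and POR, taken by name from the pathway with earlier results of these data known. Of the 22342 genes listed in each library, 8 of the 9 had a row under their symbol, and HSD17B1 had none. The identifier that the reference name table pairs with HSD17B1 carries the symbol NAGLU in the deposited list, so no value is given for HSD17B1. Barcodes with 2000 to 5000 genes and under 7% mitochondrial UMIs (unique molecular identifiers, each counting 1 captured transcript) were kept, which left 9362 of 14289 barcodes in follicle 1 (library AF75) and 7843 of 15548 in follicle 2 (library AF76).

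Both follicles came from 1 Landrace × Yorkshire pig aged 210 days that had been injected with pregnant mare serum gonadotropin, a hormone given to drive follicle growth. Each follicle gave 1 library made with a 3′ single-cell kit. With 1 library per follicle and 1 pig there was no test between follicles. Cell groups were compared within each follicle and not tested, since the groups were drawn from the same cells. The exact 95% intervals given here cover counting error only. The median barcode held 11254.5 UMIs in follicle 1 and 13902 in follicle 2, and 18 barcode sequences of the kept cells occurred in both libraries.

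Steroid hormones are made from cholesterol. The STAR protein moves cholesterol to the inner mitochondrial membrane, where CYP11A1 cuts its side chain to form pregnenolone. Electrons reach CYP11A1 from the reductase FDXR through the ferredoxin FDX1. Outside the mitochondrion, POR passes electrons to microsomal P450 enzymes such as CYP19A1, the aromatase that turns androgens into oestrogens, and CYB5A, a cytochrome b5, modulates some of these reactions. HSD17B1 reduces oestrone to oestradiol, whereas HSD17B4 is a peroxisomal enzyme that oxidises oestradiol and also serves fatty acid breakdown. Mural granulosa cells line the follicle wall and cumulus granulosa cells surround the oocyte.

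Clustering without the 9 genes and the other genes of the pathway gave 6 groups of cells. Cluster 0 carried the mural markers TGFB3, at 149 and 182 CPM (UMIs per 1000000 UMIs of the group) in follicles 1 and 2, and AREG, at 3512 and 5835 CPM, against 33.1 and 54.3 CPM and 1020 and 4489 CPM in cluster 1, and is called mural-like. Cluster 1 carried the cumulus markers VCAN, at 5868 and 1084 CPM, and SHAS2, at 266 and 14.4 CPM, against 702 and 295 CPM and 10.4 and 1.12 CPM in cluster 0, and is called cumulus-like. Not every marker followed the names: the mural marker EREG was higher in cluster 1 of follicle 1, at 58.6 against 17.8 CPM, and the cumulus marker PTX3 was higher in cluster 0, at 6.60 against 1.73 CPM and 3.10 against 2.64 CPM. The mural-like cells numbered 6447 and 5997 and the cumulus-like cells 2285 and 873. Clusters 2 to 5 are named by number. Cluster 2 held 2 barcodes of follicle 1 and 671 of follicle 2, cluster 3 carried TOP2A and held 456 and 121, cluster 4 carried ALDH1A2 and held 171 and 172, and cluster 5 held 10 barcodes with leukocyte markers. Of the 10 theca or stromal markers, INSL3, a peptide hormone of theca cells, stood at 375 and 548 CPM in mural-like cells and the androgen-making enzyme CYP17A1 at 1.79 and 1.86 CPM, and the sum of all 10 was 380 and 558 CPM. LHCGR, the receptor for luteinising hormone, stood at 9.32 and 11.3 CPM in cluster 0 and at 9.14 and 11.2 CPM in cluster 1.

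The start regions of 4 of the genes are printed here because their transcripts behaved differently across cells: STAR, CYP11A1 and FDX1 varied together from cell to cell, and CYP19A1 did so less. Each runs from 250 bases before to 20 bases after the RefSeq gene start, 5′ to 3′ on the gene's own strand, in the build Sscrofa11.1. Capitals mark matches, on either strand, to the nuclear receptor half-site AGGTCA, the core promoter element TATAAA, the site AGATAA read by GATA factors, or the GC-rich element GGGCGG. The STAR region is chr15:48377347-48377616 (plus strand), that of CYP11A1 is chr7:59172579-59172848 (plus strand), that of FDX1 is chr9:38375897-38376166 (plus strand) and that of CYP19A1 is chr1:120595985-120596254 (plus strand).
STAR: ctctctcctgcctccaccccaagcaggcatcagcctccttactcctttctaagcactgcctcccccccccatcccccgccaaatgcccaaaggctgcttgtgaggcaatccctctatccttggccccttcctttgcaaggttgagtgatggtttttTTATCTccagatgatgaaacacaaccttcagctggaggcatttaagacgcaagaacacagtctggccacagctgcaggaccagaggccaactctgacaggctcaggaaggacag
CYP11A1: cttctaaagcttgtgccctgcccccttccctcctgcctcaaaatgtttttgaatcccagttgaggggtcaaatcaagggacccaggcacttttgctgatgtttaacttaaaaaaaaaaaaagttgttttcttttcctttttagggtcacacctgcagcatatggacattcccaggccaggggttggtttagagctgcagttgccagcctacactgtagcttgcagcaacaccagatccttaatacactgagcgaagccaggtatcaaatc
FDX1: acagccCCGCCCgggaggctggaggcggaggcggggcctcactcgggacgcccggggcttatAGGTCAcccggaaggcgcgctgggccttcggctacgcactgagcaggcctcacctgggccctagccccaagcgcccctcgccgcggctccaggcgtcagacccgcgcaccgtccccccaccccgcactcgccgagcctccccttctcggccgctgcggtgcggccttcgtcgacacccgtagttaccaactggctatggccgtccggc
CYP19A1: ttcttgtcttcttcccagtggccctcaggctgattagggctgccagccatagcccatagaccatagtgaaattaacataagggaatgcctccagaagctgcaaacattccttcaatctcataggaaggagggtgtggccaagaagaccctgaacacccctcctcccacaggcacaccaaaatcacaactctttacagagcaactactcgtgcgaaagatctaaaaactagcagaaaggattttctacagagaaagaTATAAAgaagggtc

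The STAR region held 1 match to AGATAA on the opposite strand, at base -94 counted from the gene start. FDX1 held the nuclear receptor half-site at base -188 and GGGCGG, on the opposite strand, at base -244. The CYP19A1 match to TATAAA began at base 7, and none of the 4 letter strings was found in the CYP11A1 window. Among all 9 genes, AGGTCA was present in 2 regions, TATAAA in 2, AGATAA in 2 and GGGCGG in 4. Of 19556 gene starts taken the same way, 13.1% held AGGTCA, 10.3% TATAAA, 8.54% AGATAA and 48.5% GGGCGG. A match is a description of the letters and not of binding.

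STAR, the gene of cholesterol import, stood at 91.2 CPM (95% interval 89.0 to 93.3) in the mural-like cells of follicle 1 and at 64.5 CPM in those of follicle 2. In the cumulus-like cells it stood at 36.2 CPM and 39.0 CPM. The mural-like level was higher in both follicles, by 2.52-fold (2.35 to 2.70) and 1.65-fold (1.51 to 1.81). With a wider limit of 500 to 6000 genes the cumulus-like class shrank to 2 cells in follicle 2 and its log2 ratio there was -1.74 in place of 0.72. Cluster 4 reached 120 CPM in follicle 1 and 71.6 CPM in follicle 2, and cluster 2 was the lowest group, with 7.19 CPM in follicle 2.

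CYP11A1, which makes pregnenolone, was found at 1739 CPM and 1677 CPM in mural-like cells and at 1509 CPM and 1466 CPM in cumulus-like cells. The mural-like to cumulus-like ratio was 1.15 in follicle 1 and 1.14 in follicle 2, with intervals of 1.14 to 1.17 and 1.13 to 1.16. The direction was not firm and moved with the makeup of the class. With 500 to 6000 genes the log2 ratio in follicle 1 was -0.24 in place of 0.21, with 436 cumulus-like cells in place of 2285. Without integration of the libraries that in follicle 2 was -0.12 in place of 0.19, with 96 cumulus-like cells in place of 873. Its highest level was in cluster 4, with 2331 CPM and 2309 CPM, apart from the 1 barcode of cluster 5 in follicle 1, at 2355 CPM.

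FDX1, the electron carrier to CYP11A1, stood at 1243 CPM and 1215 CPM in mural-like cells and at 1040 CPM and 1174 CPM in cumulus-like cells. The ratio was 1.19 (1.18 to 1.21) in follicle 1 and 1.03 (1.02 to 1.05) in follicle 2. With 500 to 6000 genes the log2 ratio of FDX1 turned to -0.23 from 0.26 in follicle 1 and to -0.75 from 0.05 in follicle 2. FDXR, the reductase that loads FDX1, stood at 20.1 CPM and 18.1 CPM in mural-like cells and at 14.7 CPM and 21.3 CPM in cumulus-like cells. Its ratio was above 1 in follicle 1, at 1.37 (1.22 to 1.53), and below 1 in follicle 2, at 0.850 (0.747 to 0.970). The log2 of the latter, -0.23, became -1.94 with 500 to 6000 genes, -1.40 without integration and -1.13 with clusters 0, 4 and 5 against 1, 2 and 3.

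CYP19A1, the aromatase, stood at 28.9 CPM and 35.3 CPM in mural-like cells and at 6.31 CPM and 13.4 CPM in cumulus-like cells. The mural-like level was 4.57-fold (3.89 to 5.40) higher in follicle 1 and 2.63-fold (2.26 to 3.09) higher in follicle 2, the widest class difference among the 8 genes in each follicle. With 500 to 6000 genes the log2 ratio in follicle 1 was 1.21 in place of 2.19. Without integration the cumulus-like class held 96 cells of follicle 2 and the log2 ratio there was -0.28 in place of 1.40. CYB5A, the cytochrome b5, stood at 549 CPM and 701 CPM against 166 CPM and 366 CPM, a ratio of 3.30 (3.19 to 3.40) and 1.92 (1.86 to 1.97). With 500 to 6000 genes its log2 ratio was 2.67 in place of 1.72 in follicle 1 and 1.69 in place of 0.94 in follicle 2, where it was 0.39, under 1.5-fold, without integration.

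HSD17B4, the peroxisomal oxidising enzyme, stood at 116 CPM and 123 CPM in mural-like cells and at 65.8 CPM and 109 CPM in cumulus-like cells. The ratio was 1.77 (1.68 to 1.87) in follicle 1 and 1.13 (1.07 to 1.19) in follicle 2, where its log2 was -0.79 in place of 0.17 with 500 to 6000 genes. POR, the microsomal reductase, ran the other way, with 167 CPM and 154 CPM in mural-like cells and 349 CPM and 185 CPM in cumulus-like cells. Its ratio was 0.480 (0.467 to 0.493) in follicle 1 and 0.831 (0.796 to 0.869) in follicle 2.

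**Figure D1:**
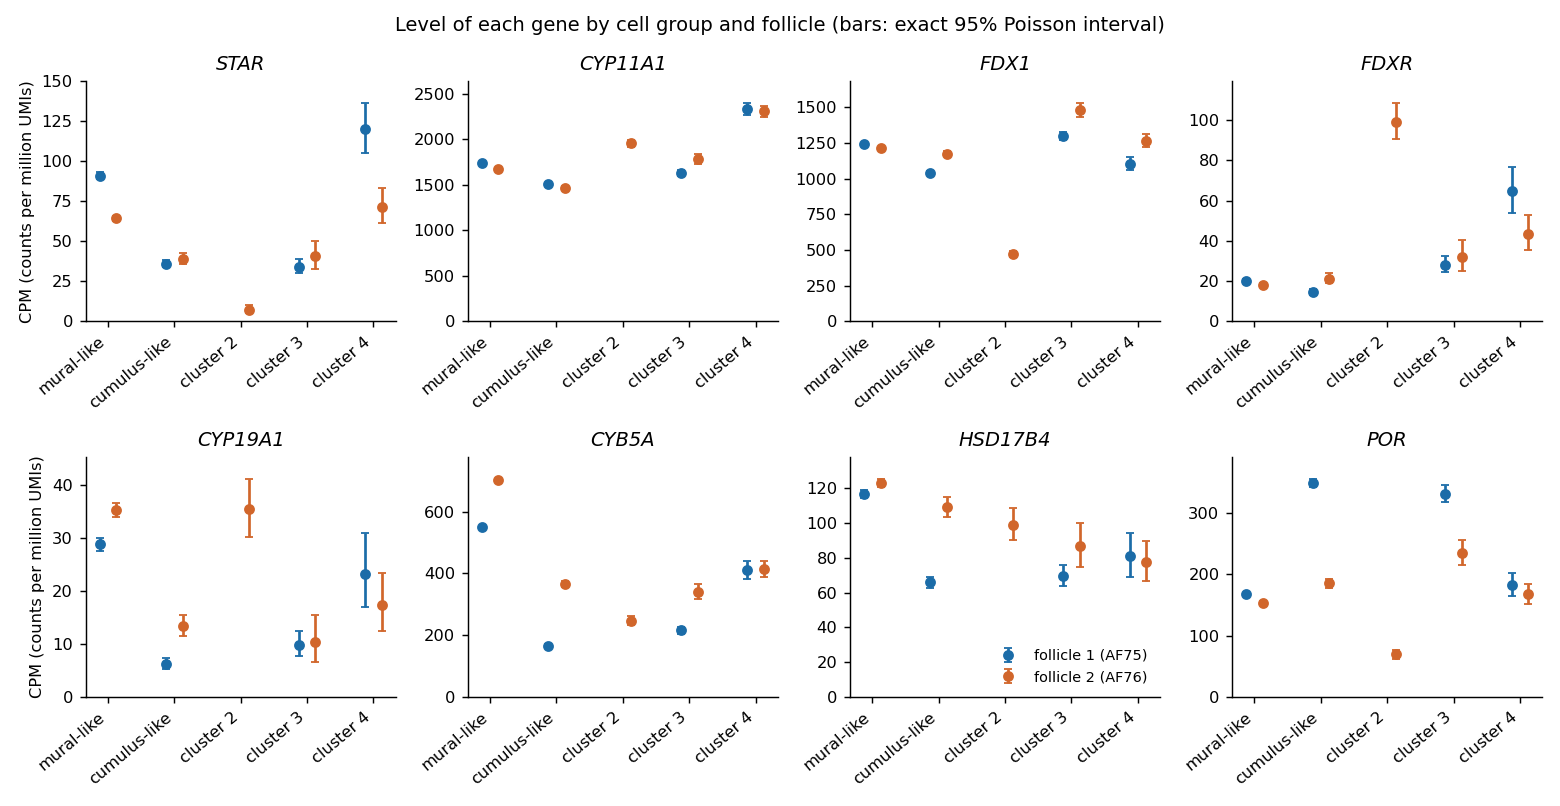
CPM (linear axis from 0) of 8 genes in mural-like cells, cumulus-like cells and clusters 2 to 4 of follicle 1 and follicle 2. Points are the summed UMIs of a group and bars the exact 95% Poisson interval. STAR, CYP19A1 and CYB5A lie higher in mural-like than in cumulus-like cells of both follicles, POR lies lower, and cluster 2, drawn for follicle 2 only, has FDXR at 99.1 CPM.

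Taking 1.5-fold in both follicles as the mark, 3 of the 8 genes (STAR, CYP19A1 and CYB5A) were higher in mural-like cells, beside 2.09% of the 9274 genes tested in both follicles. None of the 8 was that much lower in both, beside 1.91% of all genes. The genes were chosen with earlier results of these data known, and the paper that reported the data uses CYB5A as a mural marker. These counts are a description and no test. The median log2 ratio of the 8 genes was 0.64 in follicle 1 and 0.18 in follicle 2, and that of all genes tested was 0.09 and -0.00062. In follicle 2 all 5 of the genes past 1.5-fold in follicle 1 (STAR, CYP19A1, CYB5A, HSD17B4 and POR) had ratios nearer to 1. This was not particular to them: the median absolute log2 ratio of all genes tested was 0.25 in follicle 1 and 0.14 in follicle 2.

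**Figure D2:**
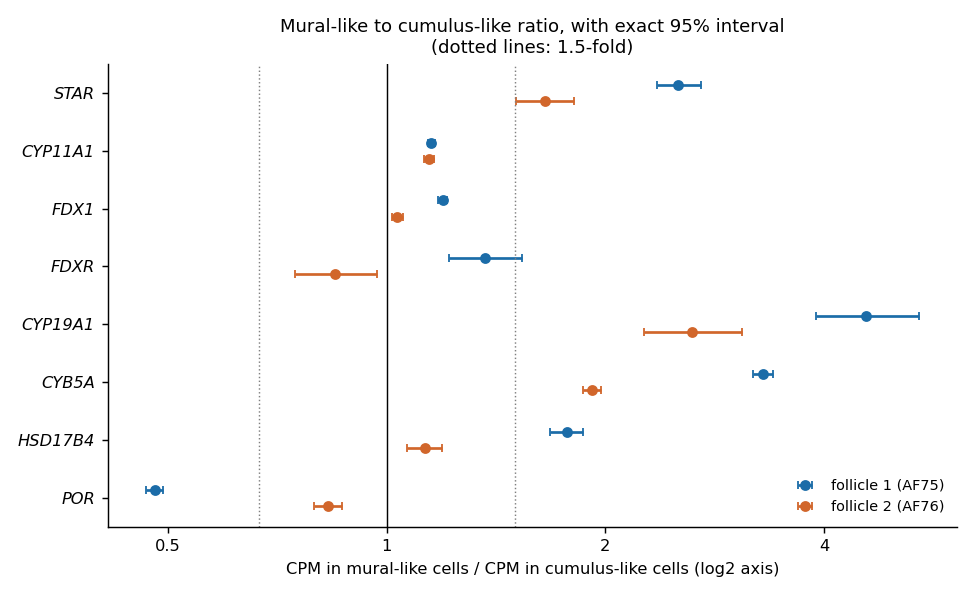
Ratio of CPM in mural-like to CPM in cumulus-like cells for 8 genes (log2 axis) in follicle 1 and follicle 2, with the exact 95% interval as bars, a solid line at 1 and dotted lines at 1.5-fold either way. CYP19A1 has the highest ratio in each follicle, 4.57 and 2.63, POR lies below 1 in both, and FDXR lies on opposite sides of 1.

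The 2 classes were not equally far apart in the follicles. The summed cumulus markers, 6 of 8 with a UMI, stood at 8916 CPM in the cumulus-like cells of follicle 1 and at 1519 CPM in those of follicle 2. The summed mural markers, 6 of 6 with a UMI, stood at 2241 CPM and 6012 CPM in the same cells, against 5101 CPM and 7508 CPM in mural-like cells. The cumulus-like cells of follicle 2 thus had a higher mural sum than the mural-like cells of follicle 1. In follicle 2 the name cumulus-like holds only relative to the mural-like cells of that follicle. AMH and SLC38A3 of the cumulus list were at 0 UMIs in the cumulus-like cells of follicle 1. The haemoglobin transcript HBB stood at 1.80 CPM in the cumulus-like cells of follicle 1 and at 167 CPM in those of follicle 2. The part of these differences in the ratios above was not tested.

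Between the follicles, mural-like cells differed by less than 1.5-fold in each of the 8 genes. The median absolute log2 ratio of all genes tested was 0.10. CYB5A was 1.28-fold (1.26 to 1.29) and CYP19A1 1.22-fold (1.16 to 1.29) higher in follicle 2, and STAR was lower, at 0.707 (0.682 to 0.732) of its level in follicle 1. CYP11A1, FDX1, FDXR, HSD17B4 and POR had ratios from 0.899 to 1.06. None of the 8 passed 1.5-fold, beside 0.358% of 9491 genes that were higher and 1.49% that were lower in follicle 2.

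Cumulus-like cells differed more. CYB5A was 2.20-fold (2.11 to 2.29) and HSD17B4 1.66-fold (1.54 to 1.78) higher in follicle 2, beside 6.56% of 7547 genes past 1.5-fold in that direction. POR was lower, at 0.531 (0.507 to 0.555) of its level in follicle 1, beside 7.67% of genes in that direction. FDXR had a ratio of 1.45 and FDX1 of 1.13, STAR of 1.08 (0.966 to 1.204) and CYP11A1 of 0.972. Over the alternatives the log2 ratio of STAR, 0.11, ran from -0.26 to 2.49, that of FDXR, 0.53, from 0.15 to 2.01 and that of HSD17B4, 0.73, from 0.41 to 2.16, the highest values being those with 500 to 6000 genes, where follicle 2 had 2 cumulus-like cells. CYP19A1 had 161 and 173 UMIs, under the 200 needed in either group, and its values of 6.31 and 13.4 CPM are given without a call. The makeup of the class differed as well: of its 2 subclusters, the one numbered 1.0 held 994 and 796 cells and the one numbered 1.1 held 1291 cells in follicle 1 and 77 in follicle 2. Within subcluster 1.0 the ratio of CYB5A was 1.49 (1.42 to 1.56), that of HSD17B4 1.33 (1.22 to 1.45) and that of POR 0.614 (0.582 to 0.648).

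The mural-like cells were divided once more, into a subcluster 0.0 of 3806 and 4025 cells and a subcluster 0.1 of 2641 and 1972 cells. CYP19A1 stood at 39.1 CPM and 44.9 CPM in the first and at 14.4 CPM and 16.9 CPM in the second. CYB5A stood at 642 CPM and 796 CPM in the first and at 417 CPM and 518 CPM in the second. The ratio of the second to the first was 0.369 and 0.376 for CYP19A1 and 0.649 and 0.651 for CYB5A, so the 2 follicles gave nearly the same values. CYP11A1 followed with 0.814 and 0.820, STAR with 0.866 and 0.948, and FDX1 with 0.960 and 1.02. POR was higher in the second, with ratios of 1.19 and 1.13. Of the 8 genes, 2 (CYP19A1 and CYB5A) were lower by 1.5-fold in both follicles, beside 0.861% of 8598 genes, and none was higher by that much, beside 1.64%.

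Set in the order 0.0, 0.1, 1.0 and 1.1, the levels of CYP19A1 and CYB5A were lower and that of POR higher at each step in both follicles. In follicle 1 CYP19A1 went from 39.1 to 14.4, 8.79 and 4.17 CPM and CYB5A from 642 to 417, 250 and 94.3 CPM. In follicle 1 POR went from 155 to 184, 300 and 391 CPM, and in follicle 2 from 147 to 167, 184 and 195 CPM. STAR changed little between the mural-like subclusters and was lower in the cumulus-like ones, from 96.5 and 83.6 to 47.2 and 26.6 CPM in follicle 1. The order follows the marker sums of follicle 1, the mural sum being 5635, 4347, 3325 and 1303 CPM and the cumulus sum 568, 1520, 4847 and 12437 CPM. In follicle 2 the cumulus sum kept this order, at 384, 778, 1461 and 2196 CPM, but the mural sum was 8215, 6148, 6169 and 4180 CPM, so that subcluster 1.0 was not below 0.1. The intervals of CYP19A1 in subclusters 0.1 and 1.0 of follicle 2, 15.4 to 18.4 and 11.7 to 16.0 CPM, also overlapped. In follicle 2 the last group held 77 cells with 10 UMIs of CYP19A1 and 35 of STAR, and the intervals of both genes and of POR there overlapped those of subcluster 1.0.

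**Figure D3:**
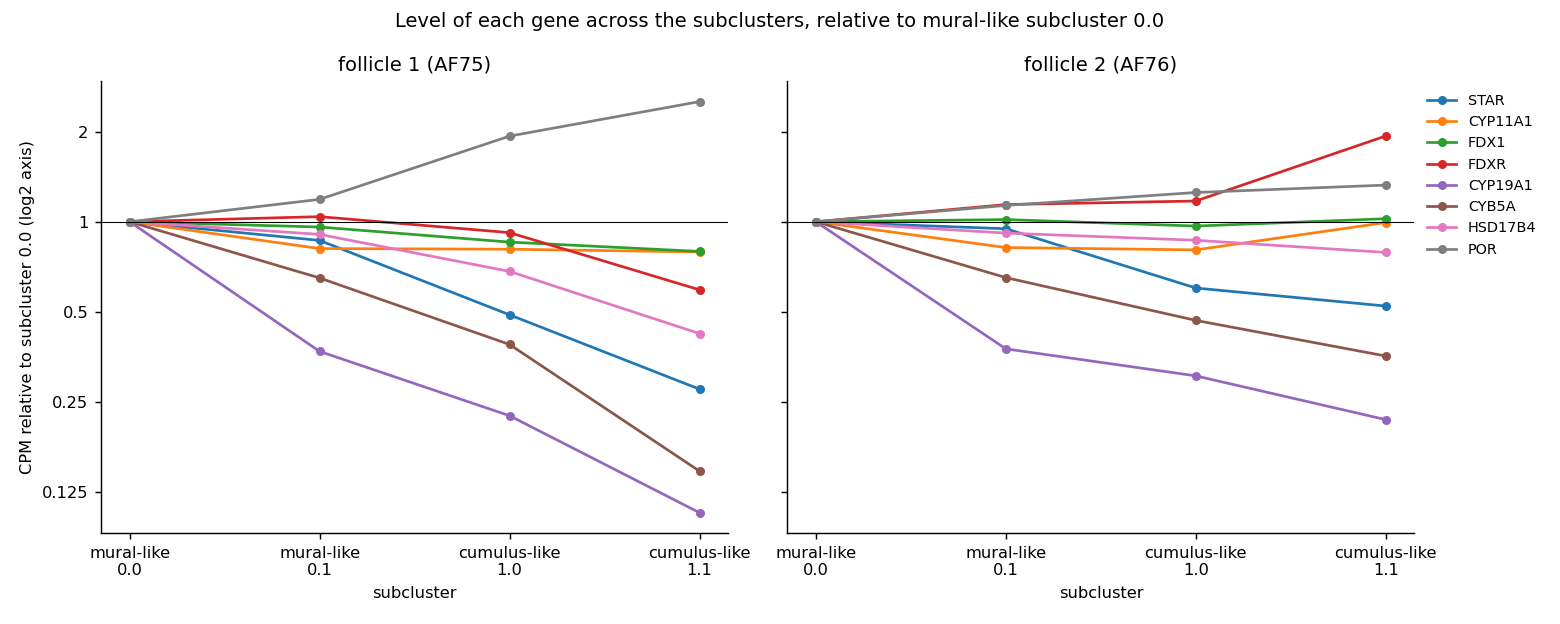
CPM of 8 genes in mural-like subclusters 0.0 and 0.1 and cumulus-like subclusters 1.0 and 1.1, relative to subcluster 0.0 (log2 axis), in follicle 1 on the left and follicle 2 on the right. CYP19A1 and CYB5A fall from left to right in both follicles and POR rises, with smaller steps in follicle 2, whose last point rests on 77 cells.

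Cluster 2 was set against the mural-like cells. It was found almost only in follicle 2, with a median of 6418 UMIs against 14223 in mural-like cells, and was led by DEFB1, CEMIP, CCL26 and CCDC80. INHA, the inhibin subunit of granulosa cells, stood there at 2256 CPM against 24543 CPM in mural-like cells. STAR was at 0.112 (0.0771 to 0.156), CYB5A at 0.353 (0.333 to 0.374), FDX1 at 0.389 (0.373 to 0.405) and POR at 0.452 (0.404 to 0.504) of the mural-like level. FDXR was 5.49-fold (4.94 to 6.09) higher, at 99.1 CPM against 18.1 CPM. CYP11A1, with a ratio of 1.17, CYP19A1, with 1.00 (0.855 to 1.17), and HSD17B4, with 0.804, lay within 1.5-fold. The 1 gene of 8 that was higher stands beside 38.5% of 9446 genes and the 4 that were lower beside 15% of them, the median log2 ratio of all genes being 0.35. Cluster 2 thus had CYP11A1 and CYP19A1 near the mural-like level while the cholesterol importer STAR was the lowest of any group of over 100 cells. Markers of other cell types moved with cluster 2. Of the 10 theca or stromal markers, 8 were higher there than in mural-like cells of follicle 2, among them the contractile protein ACTA2 at 61.9 against 0.866 CPM, PDGFRB at 38.5 against 2.35 CPM, DCN at 18.6 against 0.589 CPM and LUM at 13.3 against 0.162 CPM. INSL3, at 36.6 against 548 CPM, and CYP17A1, at 0.423 against 1.86 CPM, were lower, so the sum of the 10 was 186 against 558 CPM. Of the 6 endothelial markers 3 were higher, VWF at 22.8 against 0.462 CPM among them, CDH5 was at 0, and the sum was 38.9 against 12.2 CPM. The smooth muscle gene MYH11 and ACTA2 were in ranks 6 and 9 of the genes leading the cluster. The part of depth and of other cell types in these values was not tested.

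Cluster 4, led by ALDH1A2, SPP1 and SCG2, had more FDXR than mural-like cells, by 3.22-fold (2.67 to 3.86) in follicle 1 and 2.41-fold (1.95 to 2.93) in follicle 2. FDXR was the only one of the 8 genes past 1.5-fold in both follicles, beside 3.28% of 9272 genes that were higher and 3.32% that were lower. CYP11A1 was 1.34-fold and 1.38-fold higher there, CYB5A stood at 0.747 and 0.592 and HSD17B4 at 0.695 and 0.629 of the mural-like level. Cluster 3, which carries TOP2A and other transcripts of dividing cells, had summed cumulus markers of 5206 and 663 CPM and summed mural markers of 2640 and 4959 CPM. In cluster 3 CYP11A1 was 1.08-fold and 1.22-fold, FDX1 1.25-fold and 1.26-fold, and FDXR 1.91-fold (1.61 to 2.27) and 1.5-fold (1.14 to 1.95) the cumulus-like level. Its CYP11A1, at 1628 and 1784 CPM, was below the mural-like level in follicle 1 and above it in follicle 2. STAR stood in cluster 3 at 34.2 and 40.8 CPM and CYP19A1 at 9.92 and 10.3 CPM, and in follicle 2 the intervals of both genes overlapped those of cumulus-like cells. CYP19A1 in cluster 4 stood at 23.2 and 17.4 CPM, below mural-like cells in follicle 2 and with an overlapping interval in follicle 1.

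The genes also differed in how many cells showed them. After each cell was thinned to 5000 UMIs, which left out 12 and 9 mural-like cells, CYP11A1 had a UMI in 98.0% and 96.9% of mural-like cells and FDX1 in 93.0% and 91.6%. CYB5A had one in 83.0% and 88.0%, POR in 54.6% and 51.2% and HSD17B4 in 41.8% and 41.9%. STAR was seen in 19.8% (18.8 to 20.8) and 14.3% (13.5 to 15.3), CYP19A1 in 11.0% and 12.4%, and FDXR in 9.25% and 8.17%. Without thinning the shares of mural-like cells were 31.0% and 25.5% for STAR, 20.4% and 25.6% for CYP19A1, and 19.4% and 20.7% for FDXR. CYP11A1 and FDX1 were thus detected in nearly every mural-like cell, and STAR, CYP19A1 and FDXR in a minority.

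Free RNA in the droplets adds UMIs to any barcode, so the shares were set beside barcodes with leukocyte markers. Leukocytes may make some of the 8 genes themselves, such as POR and HSD17B4. For those genes the share there does not measure free RNA alone. Follicle 2 had 25 such barcodes among all those deposited, with a median of 4143 UMIs, and its cells were thinned to 1000 UMIs for this. CYP11A1 was then seen in 71.8% of mural-like cells and in 28% (12.1 to 49.4) of the leukocyte-like ones, FDX1 in 57.8% and 24% (9.36 to 45.1), and CYB5A in 44.4% and 20% (6.83 to 40.7). STAR was seen in 4.49% and in 8% (0.984 to 26.0), HSD17B4 in 11.5% and 8%, and POR in 14.7% and 16%. CYP19A1 was seen in 3.35% of mural-like cells and in 0 of the 25, which allows up to 12%, and FDXR in 1.83% and likewise in 0 of the 25. At this depth and with 25 barcodes, the shares of CYP11A1, FDX1 and CYB5A were above the upper bound of the leukocyte-like interval. Those of STAR, POR, HSD17B4, CYP19A1 and FDXR were not. Follicle 1 had 5 leukocyte-like barcodes, with an interval of 0.505 to 71.6% for CYP11A1, FDX1 and CYB5A. In its mural-like cells CYP11A1, at 73.8%, lay above that interval, and FDX1, at 58.3%, and CYB5A, at 38.5%, did not.

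STAR was unevenly spread among cells. In thinned mural-like cells its variance was 4.85 and 4.41 times its mean, against a median of 1.05 and 1.06 over the 5467 and 5306 genes with at least 0.1 UMIs per cell. The richest single cells held 30 and 26 UMIs, while the median cell held 0. Beyond counting noise the coefficient of variation of STAR was 2.98 and 3.30, against 1.78 and 1.95 for CYP19A1 and a median of 0.392 and 0.418 over genes, and it was the highest among the 8 genes. FDX1 had a ratio of variance to mean of 5.38 and 6.11 and CYP11A1 of 4.24 and 4.75, at means of 6.17 and 6.11 UMIs for FDX1 and 8.60 and 8.42 UMIs for CYP11A1. The coefficient of variation beyond counting noise was 0.842 and 0.914 for FDX1, 0.614 and 0.667 for CYP11A1, 0.993 and 0.859 for FDXR, 0.780 and 0.756 for CYB5A, 0.490 and 0.559 for POR and 0.458 and 0.564 for HSD17B4, so all 8 genes lay above the median gene.

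Across thinned mural-like cells, STAR, CYP11A1 and FDX1 varied together. Pearson's r of log counts was 0.30 and 0.31 for CYP11A1 and FDX1, 0.25 and 0.23 for STAR and FDX1, and 0.23 and 0.19 for STAR and CYP11A1, over 6435 and 5988 cells that share 1 library in each follicle. Among 5245 other genes, FDX1 was the gene most like CYP11A1 and CYP11A1 the one most like FDX1, by the lower r of the 2 follicles. FDX1 was also the gene most like STAR, with CYP11A1 in rank 3. The median over the 28 pairs of genes was 0.028 and 0.037. The r of CYP11A1 and FDX1 was 0.28 and 0.29 within subcluster 0.0, 0.31 and 0.36 within subcluster 0.1, and 0.37 and 0.33 in cumulus-like cells.

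Other genes stood beside the 3 in the same ranking. MGARP, which codes for a mitochondrial protein of steroid-making cells, had an r of 0.29 and 0.28 with CYP11A1 and of 0.29 and 0.30 with FDX1, whose next genes were STAR, IQGAP2 and ACTR3. NR5A2, a nuclear receptor that binds steroidogenic promoters, had 0.23 and 0.22 with CYP11A1. ACTR3 and IQGAP2, of the cytoskeleton, ranked just before and just after NR5A2. With STAR the nearest genes after FDX1 were HMGCS1, an enzyme of cholesterol synthesis, at 0.22 and 0.20, then CYP11A1, MGARP, and INSIG1, a sterol-regulated membrane protein, at 0.19 and 0.18. The 95th percentile of r over all genes was 0.033 and 0.032 for STAR and 0.047 and 0.052 for CYP11A1.

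CYP19A1 and CYB5A had lower r with the 3 than these had with each other. CYP19A1 had an r of 0.12 and 0.12 with CYP11A1, of 0.020 and 0.022 with FDX1 and of 0.022 and 0.051 with STAR, and the gene most like it was MGST1, a microsomal glutathione transferase, at 0.15 and 0.13. CYP11A1 came next, in rank 2 of 5245 genes, where the 95th percentile of r was 0.030 and 0.031, followed by IL33, SERPINE2 and GLDN. CYB5A had an r of 0.017 to 0.092 with the 3. The gene most like CYB5A was IL33, a cytokine, at 0.18 and 0.18, followed by RPS12, RPLP1, TGFB3 and REXO2. By the lower r of the 2 follicles, GOLGB1 was the gene most like HSD17B4, at 0.078 and 0.083, and INHBA the one most like POR, at 0.071 and 0.083. After GOLGB1 came HSP90AA1, HADH, MAP1B and AMIGO2, and after INHBA came ENSSSCG00000011147, ENSSSCG00000006395, PTHLH and ENO1. FDXR had under 0.1 UMIs per thinned cell in follicle 2 and was left out of the ranking, and its r with the other 7 genes ran from -0.029 to 0.11. A weak r in such sparse counts says little either way.

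**Figure D4:**
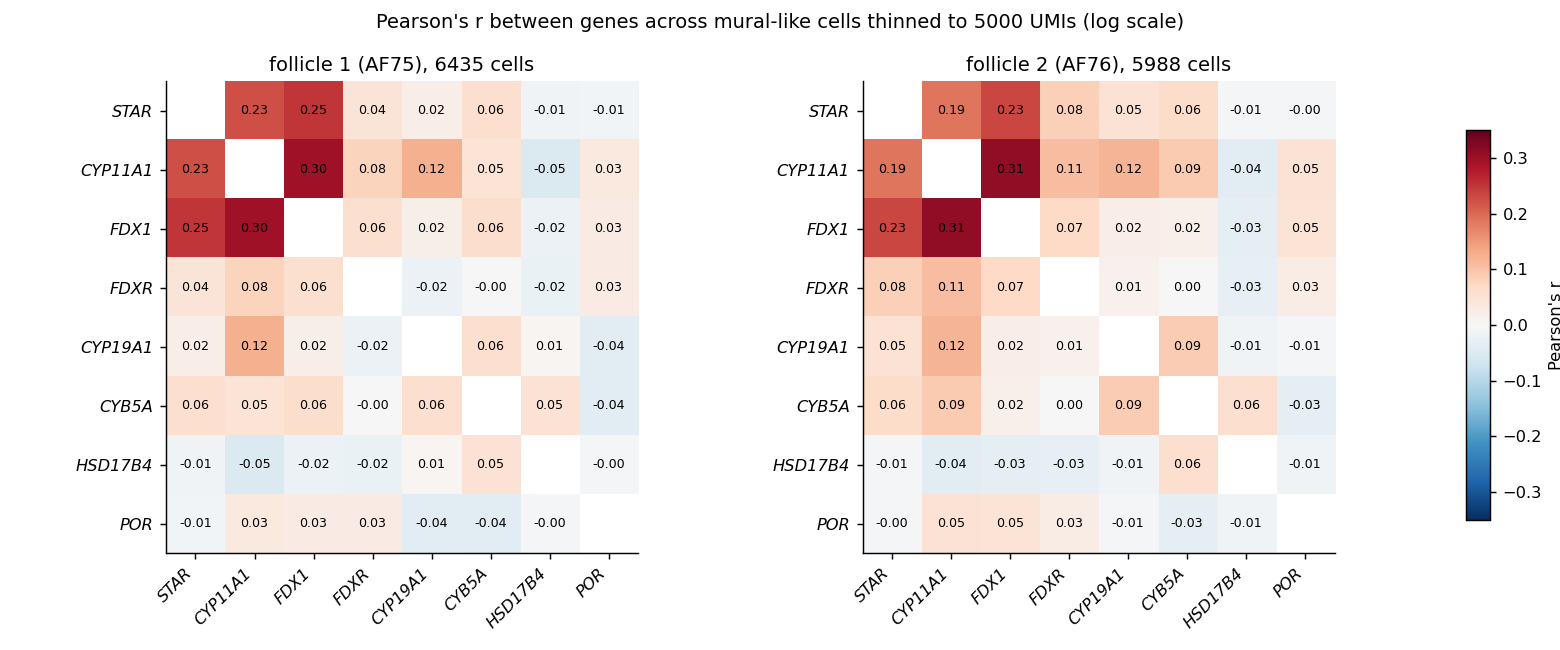
Pearson's r between each pair of 8 genes across mural-like cells thinned to 5000 UMIs, on the log scale, in follicle 1 (6435 cells) and follicle 2 (5988 cells). Red is positive and blue negative, the diagonal is blank, and the block of STAR, CYP11A1 and FDX1 runs from 0.19 to 0.31 in both follicles.

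Grouping the same cells by their STAR UMIs shows the size of this relation. Cells without a STAR UMI numbered 5160 and 5129, those with 1 to 4 numbered 1158 and 780, and those with 5 or more numbered 117 and 79. The last group made up 1.82% and 1.32% of cells and held 35.7% and 34.3% of all STAR UMIs. CYP11A1 averaged 7.91 UMIs (SD across cells 5.51) in the first group, 10.9 (6.78) in the second and 16.1 (9.23) in the third in follicle 1, and 7.90 (5.84), 11.06 (7.49) and 16.3 (10.7) in follicle 2. FDX1 averaged 5.48, 8.57 and 13.2 UMIs in follicle 1 and 5.54, 9.13 and 13.6 in follicle 2. FDXR averaged 0.0963, 0.114 and 0.214 UMIs in follicle 1 and 0.0790, 0.129 and 0.241 in follicle 2. All 3 genes were thus higher in the STAR-rich cells of both follicles, with wide overlap between single cells.

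CYP19A1 averaged 0.134, 0.161 and 0.137 UMIs across the same groups in follicle 1 and 0.159, 0.197 and 0.380 in follicle 2. The third group held 117 and 79 cells, and the SD of CYP19A1 across them was 0.413 and 0.881. The difference between the follicles there was not tested. CYP19A1 had a UMI in 12.47% of cells with a STAR UMI and in 10.66% of those without one in follicle 1. In follicle 2 the shares were 15.25% and 11.95%. The intervals of these shares overlapped in follicle 1 and not in follicle 2. CYB5A averaged 2.68 to 3.38 UMIs in follicle 1 and 3.46 to 4.32 in follicle 2. POR averaged 0.865, 0.854 and 0.778 UMIs in follicle 1 and 0.787, 0.795 and 0.633 in follicle 2, and HSD17B4 stayed between 0.513 and 0.588 in both. HMGCS1 went from 1.31 to 4.04 and from 0.944 to 3.66 UMIs between the first and the third group. The third group had a median of 12429 and 15772 UMIs before thinning, against 11292 and 14168 in the first. Of its cells 4.27% and 5.06% were among the 6.9% with the highest doublet score. The second group had 7.25% and 10% of its cells there, and the first 6.12% and 7.16%. Of the third group, 58.1% and 74.7% lay in subcluster 0.0, against 58.1% and 67.1% of the first.

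**Figure D5:**
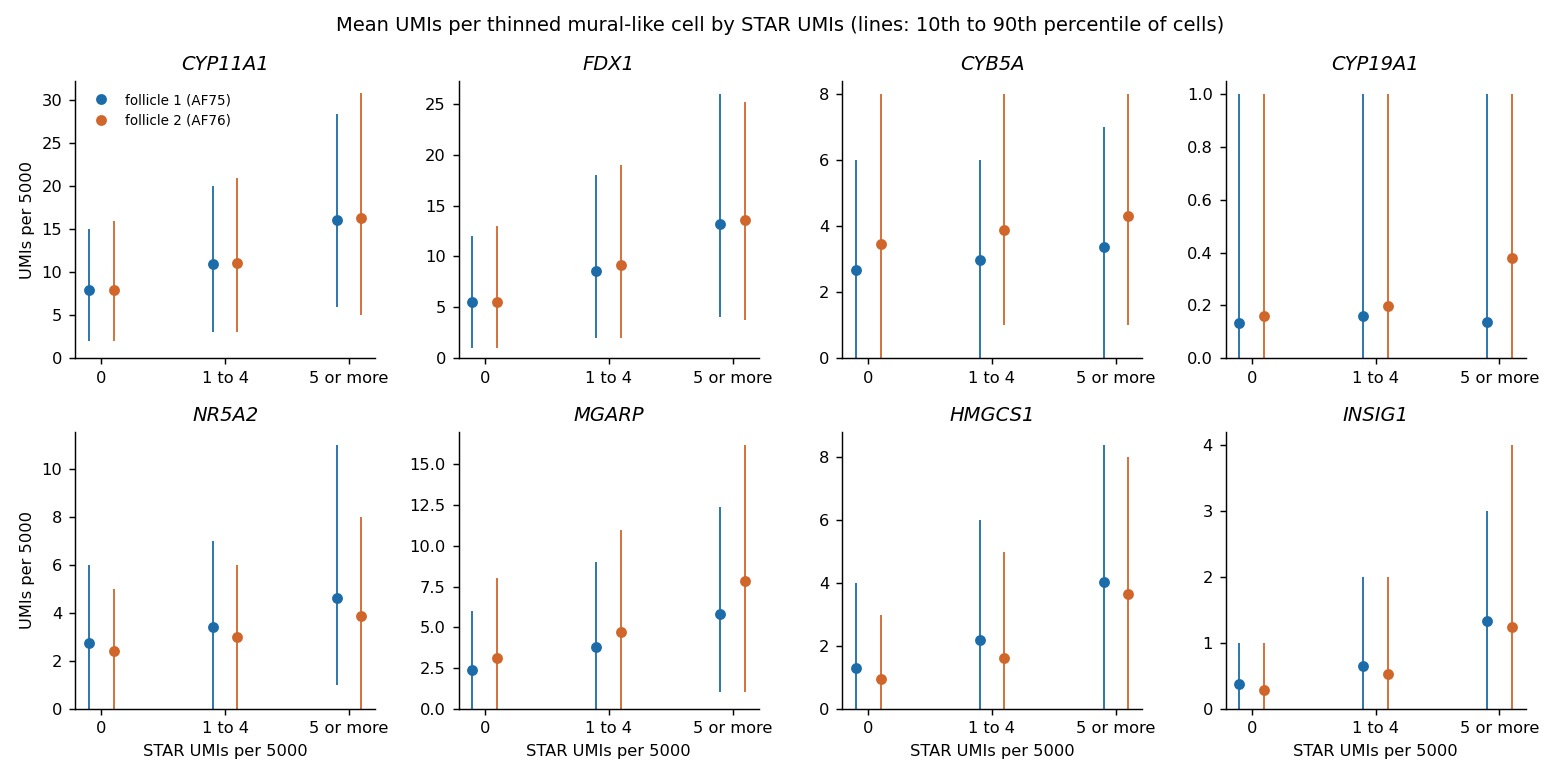
Mean UMIs per mural-like cell thinned to 5000 UMIs (points) of 8 genes by the number of STAR UMIs in the cell, 0, 1 to 4, or 5 or more, in follicle 1 and follicle 2, with lines from the 10th to the 90th percentile of cells. CYP11A1 rises from 7.91 to 16.1 and from 7.90 to 16.3 UMIs and FDX1, NR5A2, MGARP, HMGCS1 and INSIG1 rise with it, while CYP19A1 goes from 0.134 to 0.137 in follicle 1 and from 0.159 to 0.380 in follicle 2.

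The wider pathway was read from a list of 67 symbols other than the 9. Of these, 50 had a row, and 35 had enough UMIs for a mural-like to cumulus-like ratio. None was 1.5-fold higher in mural-like cells of both follicles and 1, NR4A1, a nuclear receptor induced early after stimulation, was lower, beside 2.09% and 1.91% of 9274 genes. NR4A1 stood at 4.16 against 37.8 CPM in follicle 1 and 3.86 against 6.36 CPM in follicle 2. Of 12 genes of cholesterol delivery and storage none passed in both follicles. SCARB1, the receptor for high-density lipoprotein, stood at 1532 and 1522 CPM in mural-like cells and at 1004 and 1494 CPM in cumulus-like cells.

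The 6 other steroid enzymes with a ratio, the 7 other electron carriers and the 2 genes of inactivation gave no gene past 1.5-fold in both follicles. HSD17B7, a 17-beta-hydroxysteroid dehydrogenase that also acts in cholesterol synthesis, came closest on the cumulus-like side, at 386 and 334 CPM in mural-like cells and 582 and 500 CPM in cumulus-like cells. SRD5A1, a steroid 5-alpha-reductase, had ratios of 2.41 and 1.44. Among 8 regulators, NR5A2 had ratios of 1.14 and 1.12, NR5A1 of 1.1 and 1.08 and GATA4 of 0.481 and 0.872. CYP17A1, which makes androgens, stood at 1.45 and 1.59 CPM over all kept cells.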

How the data were processed

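Somatic cells of 2 antral follicles of 1 pig were profiled with a 3′ single-cell kit, 1 library per follicle. The deposited matrices hold raw UMI counts per gene and barcode, made by the authors with Cell Ranger 6.0.2 (per the file headers) on Sscrofa11.1, with nothing pooled.

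Barcodes were kept with 2000 to 5000 genes and under 7% mitochondrial UMIs. Doublets were not removed, since the rule has no such step, and an alternative removed the 6.9% with the highest doublet score of an own scorer. Cells were integrated and clustered in Seurat 5.3.0 (R 4.3.3) on 2000 variable genes without the 9 genes and the pathway list, with 40 components, at the lowest resolution (steps of 0.02) giving 6 clusters, and clusters 0 and 1 were split into 2 subclusters each. Of 7356 genes listed by identifier only, 1042 took a symbol from the reference name table.

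Levels are CPM, the UMIs of a gene summed over a group per 1000000 UMIs of that group. Intervals are exact and at 95%, from the Poisson law for a level, by Clopper and Pearson for a share and conditional on the total for a ratio. They cover counting error only. A ratio needed 200 UMIs in 1 of the groups. A count of 0 allows up to 3 counts. Cells were thinned to 5000 UMIs for shares and correlations (SciPy 1.17.1, NumPy 2.4.6), and likeness was ranked over genes with at least 0.1 UMIs per thinned mural-like cell in both follicles. All 9 genes were named, with the 5 genes most like each of the 7 that had enough UMIs (not FDXR or HSD17B1). The ratio, thinning and correlation were tested on simulated data. Leukocyte-like barcodes had at least 10 UMIs over at least 3 leukocyte markers, a rule chosen after seeing the data, as were the STAR groups. The members and the lists were chosen with earlier results of these data known. Alternatives are in the closing section.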

Additional observations from a re-analysis of the deposited data

Results flagged for a closer look

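FDXR was flagged because its mural-like to cumulus-like ratio lay on opposite sides of 1 in the 2 follicles, at 1.37 in follicle 1 and 0.850 in follicle 2, with neither interval reaching 1. The log2 of the second value, -0.23, ran from -1.94 to -0.13 over the alternatives. The same gene stands out when the follicles are compared within each class, with a follicle 2 to follicle 1 ratio of 0.899 in mural-like cells and 1.45 in cumulus-like cells. FDX1 was flagged in the same way, at 0.978 in mural-like cells and 1.13 in cumulus-like cells. The difference between the follicles was not tested, since each gave 1 library, and the intervals cover counting error only.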

How the results depend on the processing

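Mural-like and cumulus-like cells were compared within each follicle, and this pairing was not tested. Between the follicles no test was possible because each gave 1 library. The count of 3 genes at least 1.5-fold higher in mural-like cells of both follicles ran from 1 to 3 over 12 alternatives, and it was 1 without integration, where the cumulus-like class held 96 cells of follicle 2. CYP19A1 and CYB5A fell under the mark there, and STAR did so with 500 to 6000 genes. None of the 3 genes thus passed under every alternative. There the log2 ratio of CYP19A1 in follicle 2 turned from 1.40 to -0.28. With 500 to 6000 genes the cumulus-like class held 438 cells, 2 of them of follicle 2 and 12.6% of the original class, and the log2 ratio of STAR in follicle 2 was -1.74 against 0.72. That setting gave no ratio of CYP19A1 in follicle 2. Other moves of over 1.5 times are given beside their values. In cumulus-like cells the follicle 2 to follicle 1 log2 ratio of CYP11A1, at -0.04, ran from -0.29 to 0.25. That of CYP19A1, at 1.09, was 2.54 without integration. The UMIs of CYP19A1 behind the value of 1.09 were under the number needed for a ratio, so no call is made from it. The count of 3 genes past 1.5-fold between follicles in cumulus-like cells was 5 with clusters 0, 4 and 5 set against 1, 2 and 3 and 1 with subcluster 1.0 alone, an alternative chosen after seeing the data. No gene was 1.5-fold lower in mural-like cells of both follicles, or past 1.5-fold between follicles in mural-like cells, under any of the 12. The median r over the 28 pairs was 0.053 and 0.052 on all UMIs, without thinning, against 0.028 and 0.037, and the r of CYP11A1 and FDX1 ran from 0.29 to 0.36 over its alternatives. Of 382 ratios recomputed, 2 changed sign from a value past 1.5-fold (others changed sign from nearer to 1) and 213 stayed within the interval given. Levels over all kept cells moved by at most 1.09-fold. Another random seed kept 56.0% of the original cumulus-like cells in that class, so the border of the class is not sharp, and ratios in follicle 2 rest on 873 cells.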
